A study of Mus musculus with 6 samples.

Results

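The 9 genes described here make, oxidise or carry citrate: Cs, Aco1, Idh1, Idh2, Idh3a, Ogdh, Fh1, Mdh2 and Slc25a1. They were chosen by symbol for their place in this pathway, with no threshold on their values, and are listed in the deposited table in capitals (CS, ACO1, IDH1, IDH2, IDH3A, OGDH, FH1, MDH2 and SLC25A1). All 9 were found among the 24908 genes of the table. All 9 also had a mean of at least 1 FPKM (read fragments relative to transcript length and to the mapped reads of a library) over the 6 libraries, as did 12361 genes in total, and these are the genes compared below.

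Bulk RNA-seq was available for the ventral (VP), dorsolateral (DLP) and anterior (AP) prostate lobes of 1 wild-type (WT) mouse and 1 Hi-MYC (MYC) mouse, with 1 library for each lobe and genotype. The comparison asks how transcript levels in each lobe differ between the MYC mouse and the WT mouse. Both animals were males of the FVB strain, 12 weeks old and on a purified diet since weaning. The MYC mouse was heterozygous for a human c-MYC transgene driven in the prostatic epithelium by ARR2Pb, a probasin promoter that responds to androgen, and the WT mouse was a littermate without it. The lobes were dissociated into cell suspensions before RNA was extracted from them, and polyadenylated RNA was sequenced as stranded single-end reads. The 3 lobes of a mouse are not replicates of its genotype, so that genotype and individual animal cannot be told apart, and no value below has a replicate check or a p-value. In bulk RNA, fewer cells of a type and less RNA per cell cannot be told apart either.

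The secretory epithelium of the prostate is known for releasing large amounts of citrate. Citrate synthase joins acetyl-CoA and oxaloacetate in the mitochondrion, the product is rearranged to isocitrate, and the dehydrogenases of the tricarboxylic acid (TCA) cycle oxidise it step by step back to oxaloacetate. Citrate can also leave the matrix through the carrier encoded by Slc25a1, after which it is secreted, cleaved to acetyl-CoA for lipid synthesis, or oxidised by cytosolic isoenzymes.

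Depth was recovered from the steps in which low FPKM values fall, and came to between 25.3 M reads (WT AP) and 49.95 M (WT VP). The 9 genes correspond to between 175 (Aco1 in WT AP) and 5645 (Cs in MYC VP) estimated reads per library. The 95% intervals given with FPKM ratios are exact binomial (Clopper-Pearson) intervals of these reads, and they cover counting error only. The entry listed as Myc, which does not separate mouse from human reads, had 226.4, 200.6 and 230.0 FPKM in WT VP, DLP and AP, and 1696, 586.1 and 230.9 FPKM in MYC VP, DLP and AP. The AP libraries therefore hardly differ in this entry. The luminal keratins Krt8 and Krt18, which mark the secretory epithelium, had between 387.9 and 1611 FPKM in all 6 libraries.

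The libraries of a lobe also differed in markers of other cell types. The hematopoietic list (12 genes) was higher in MYC for 11 genes in VP and 12 in DLP, where its summed level went from 36.77 to 235.1 FPKM and from 90.75 to 406.9 FPKM. In AP it was higher for 6 of 12, with sums of 190.4 FPKM in WT and 197.0 FPKM in MYC. Over the fibroblast list (10 genes), the log2 ratio of MYC to WT had medians of -1.43 in VP and -0.60 in DLP, and of 0.36 in AP, where 8 of 10 were higher. Its sums ranged from 1308 to 1858 FPKM in WT and from 318.4 to 1665 FPKM in MYC. The smooth muscle list (10 genes) had medians of -0.81 in VP and -0.83 in DLP, and of 0.55 in AP, where 9 of 10 were higher, with sums of 343.7 to 525.1 FPKM in WT and 261.7 to 452.7 FPKM in MYC. The basal list was lower for 8 of 8 genes in VP (median -0.59), with medians of 0.32 in DLP and -0.41 in AP and sums of 794.4 to 2427 FPKM in WT and 527.6 to 2167 FPKM in MYC. Genes of seminal vesicle secretion summed to at most 0.1858 FPKM in WT libraries and to 524.1 FPKM in MYC AP. Of 6 adipocyte markers, Plin1 is listed at 0 in all 6 libraries and Adipoq, Lep and Cidec had means below 1 FPKM, while Fabp4 had 27.23 to 64.83 FPKM and Pparg 1.971 to 5.291 FPKM, both higher in MYC in each lobe. The part of these differences in the results below was not tested.

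With values as deposited, 7 of the 9 genes were higher in MYC than in WT in each lobe, and the exceptions differed by lobe. Idh1 and Ogdh were lower in MYC VP, Ogdh and Slc25a1 in MYC DLP, and Ogdh and Mdh2 in MYC AP. The log2 ratio, log2((FPKM + 1) of MYC / (FPKM + 1) of WT), had a median over the 9 genes of 0.53 in VP, 0.16 in DLP and 0.36 in AP. The median of all 12361 genes compared was 0.04 in VP, 0.03 in DLP and 0.13 in AP. A ratio above 0 was common among all genes too, at 53.25% in VP, 53.54% in DLP and 66.39% in AP. A scaling shifts all genes of a library nearly alike, so that a gene's place relative to the median of all genes hardly depends on it, but its sign can. Under the other library scalings tried, some small log2 ratios changed sign, as given for each gene, and the number above 0 fell to 5 of 9 in VP with either scaling to equal sums, and to 4 of 9 in DLP with equal sums without the 20 highest genes. Relative to the mitochondrial genes described below it was 5 in VP, 3 in DLP and 6 in AP, and relative to Krt8 and Krt18 it was 8, 4 and 9. Cs, Idh2 and Idh3a were higher in MYC in all 3 lobes under each of these scalings.

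None of the 9 genes differed by 2-fold or more between the genotypes in any lobe, as deposited or under the library scalings. Relative to Krt8 and Krt18, Fh1 (log2 ratio 1.14) and Idh3a (1.12) passed 2-fold in VP, and so did Idh1 (-1.19) relative to the mitochondrial genes. At least 2-fold differences were found for 12.8% of all genes compared in VP, 9.85% in DLP and 2.65% in AP, so that 0 of 9 is below or near the background in each lobe. At a 1.5-fold threshold, 4 genes were higher in MYC VP (Idh2, Idh3a, Fh1 and Mdh2), against 16.7% of all genes, and 1 gene was lower (Idh1), against 14.9%. In DLP, 1 gene passed 1.5-fold upwards (Idh2, background 13.4%) and 0 downwards (background 9.44%). In AP, 1 gene passed 1.5-fold upwards (again Idh2, background 7.53%) and 0 downwards (background 3.13%). Counts of 0 or 1 of 9 lie near these background shares. The count of higher genes in VP depends on the scaling: it was 3 with a trimmed mean and 2 (Idh3a and Fh1) with medians of ratios and with both scalings to equal sums.

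**Figure D1:**
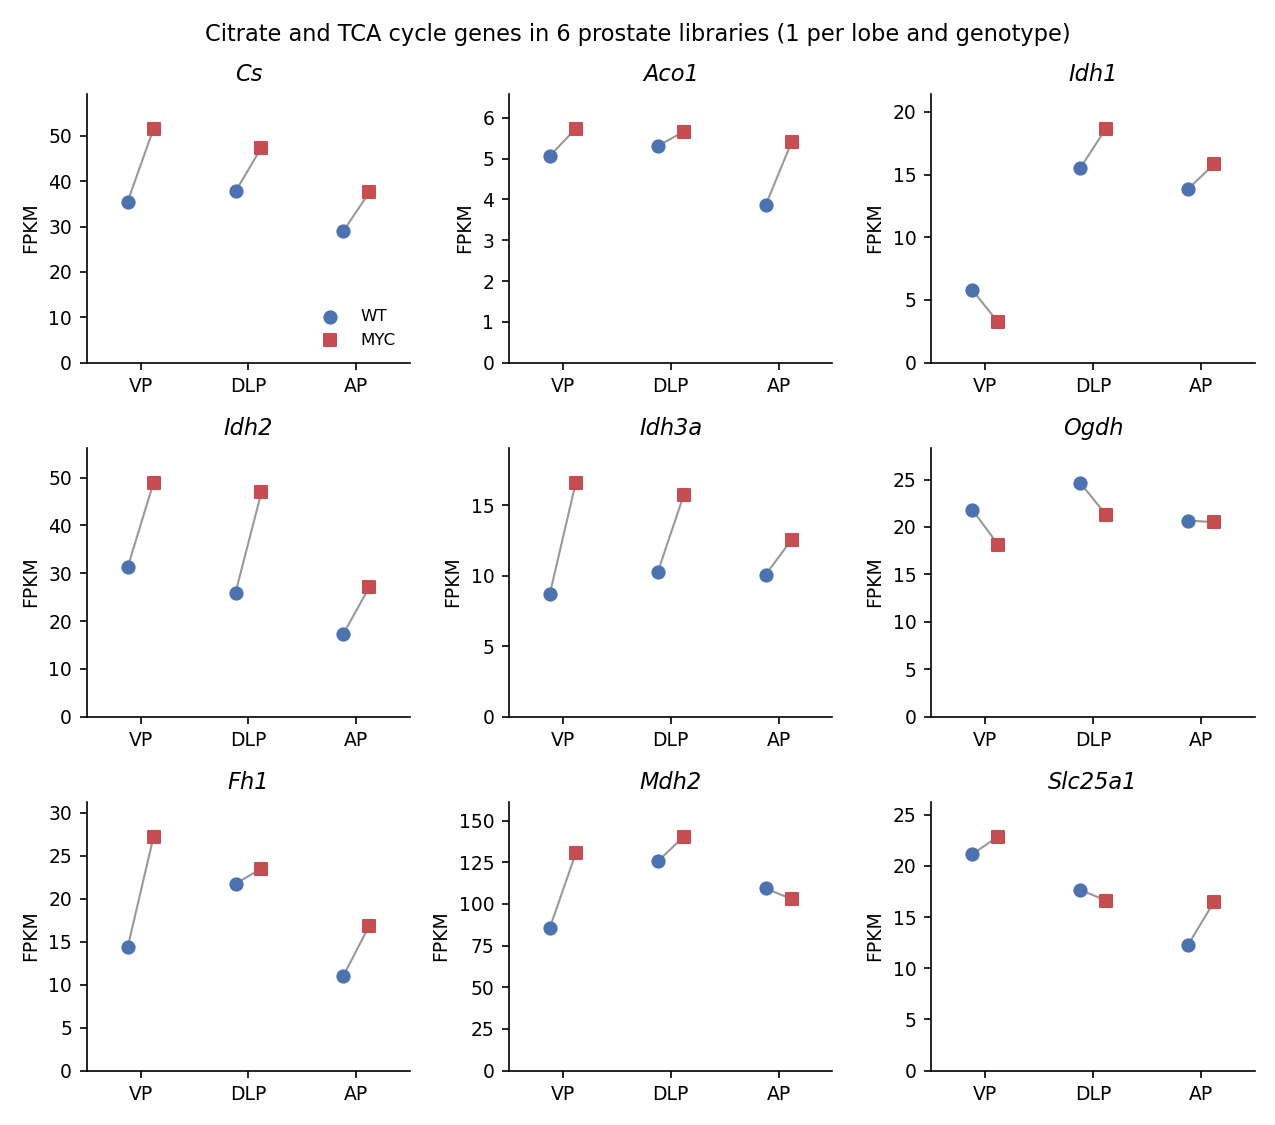
FPKM (y axis, linear, from 0) of each of the 9 genes in the VP, DLP and AP libraries (x axis) of the WT mouse (blue circles) and the MYC mouse (red squares), 1 library per point, with a line joining the genotypes of a lobe. Cs and Idh2 lie higher in MYC in all 3 lobes, Ogdh changes little, and Idh1 is lowest in both VP libraries, at 5.82 FPKM in WT and 3.22 FPKM in MYC.

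Cs encodes citrate synthase, the enzyme that makes citrate (chr10:128337727-128362482, build GRCm38.p6, as for all gene positions below). Its level was 35.5, 37.7 and 29.0 FPKM in WT VP, DLP and AP, and 51.6, 47.4 and 37.5 FPKM in MYC VP, DLP and AP. MYC was thus the higher genotype in every lobe, and AP the lowest lobe in both mice. The FPKM ratio of MYC to WT was 1.45 in VP (95% interval 1.40 to 1.51), 1.26 in DLP (1.21 to 1.31) and 1.29 in AP (1.23 to 1.36). On the log2 scale these differences were 0.53, 0.32 and 0.36, and 18.94%, 25.01% and 20.81% of all genes compared had a higher log2 ratio in VP, DLP and AP. Cs ranked second of the 9 genes by FPKM in all 6 libraries, after Mdh2.

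Slc25a1 encodes the mitochondrial citrate carrier, which exchanges citrate for malate across the inner membrane (chr16:17925211-17928219). Its level was 21.1, 17.7 and 12.25 FPKM in WT VP, DLP and AP, and 22.85, 16.6 and 16.4 FPKM in MYC VP, DLP and AP. In contrast to Cs, the genotypes lay close together in VP and DLP, and MYC was clearly the higher library only in AP. The FPKM ratio of MYC to WT was 1.08 in VP (0.968 to 1.21) and 0.941 in DLP (0.822 to 1.08), where both intervals include 1, and 1.34 in AP (1.14 to 1.59). The log2 ratio in VP, 0.11, became negative with either scaling to equal sums. Within WT, the carrier was highest in VP and lowest in AP, whereas in MYC the DLP and AP libraries differed by less than counting error (ratio 1.01, 0.883 to 1.16).

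The ratio of Slc25a1 to Cs within a library does not depend on how libraries are scaled. It was 0.595 in WT VP and 0.443 in MYC VP, and 0.468 in WT DLP and 0.351 in MYC DLP. In AP it was 0.422 in WT and 0.438 in MYC. Carrier transcripts relative to citrate synthase transcripts were therefore 1.34-fold lower in MYC than in WT in both VP and DLP, and 1.04-fold higher in AP.

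Aco1 encodes the cytosolic aconitase, which in iron-poor cells acts as iron regulatory protein 1 (chr4:40143265-40199009). Its level was 5.07, 5.31 and 3.86 FPKM in WT VP, DLP and AP, and 5.74, 5.66 and 5.40 FPKM in MYC VP, DLP and AP. It was the lowest of the 9 genes in every library except MYC VP, where Idh1 was lower. Only in AP did the interval of the FPKM ratio exclude 1 (1.40, 1.17 to 1.67), compared with 1.13 in VP (0.988 to 1.29) and 1.07 in DLP (0.923 to 1.23). The log2 ratios of 0.15 in VP and 0.08 in DLP became negative when the libraries were scaled to equal sums without the 20 highest genes, and the VP value also with plain equal sums.

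A list of 6 genes of iron regulation, set beside Aco1 for its other role, had median log2 ratios of -0.09 in VP, -0.04 in DLP and -0.22 in AP. The 1 gene of it that passed 2-fold, Slc40a1, which encodes the iron exporter ferroportin, is named after its values were seen and went from 1.07 FPKM in WT DLP to 7.40 FPKM in MYC DLP, where 9.85% of all genes passed 2-fold, but from 1.71 to 1.17 FPKM in VP.

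Idh1 encodes the cytosolic and peroxisomal isocitrate dehydrogenase that makes NADPH (chr1:65158616-65186479). Its level was 5.82, 15.5 and 13.8 FPKM in WT VP, DLP and AP, and 3.22, 18.7 and 15.8 FPKM in MYC VP, DLP and AP. Both VP libraries lay below the libraries of the other lobes, and MYC VP was the lowest of all. In VP the FPKM ratio of WT to MYC was 1.80, that is, MYC to WT was 0.554 (0.465 to 0.660), while MYC was the higher library in DLP (1.21, 1.10 to 1.32) and AP (1.14, 1.03 to 1.27). Of all genes compared, 88.32% had a higher log2 ratio than Idh1 in VP, against 29.58% in DLP and 42.28% in AP.

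Among the 9 genes, Idh1 was also the only one that differed by 2-fold or more between lobes of a mouse. In WT it was 2.66-fold lower in VP than in DLP (2.38 to 2.99) and 2.38-fold lower than in AP (2.09 to 2.72). In MYC it was 5.79-fold lower in VP than in DLP (4.95 to 6.80) and 4.90-fold lower than in AP (4.21 to 5.75). The endothelial (10 genes), basal (8 genes) and fibroblast (10 genes) marker lists were lowest in VP as well. The endothelial list summed to 44.55, 206.8 and 293.6 FPKM in WT VP, DLP and AP, and to 53.76, 255.4 and 319.8 FPKM in MYC. The basal list summed to 794.4, 1655 and 2427 FPKM in WT and to 527.6, 2167 and 1326 FPKM in MYC, in the same order. The fibroblast list summed to 1308, 1858 and 1618 FPKM in WT and to 318.4, 891.8 and 1665 FPKM in MYC, so that it was lower in MYC VP than in WT VP, as Idh1 was, while the luminal list was highest in VP, at 3455 FPKM in WT and 2840 FPKM in MYC. The part of these differences in the level of Idh1 by lobe was not tested. Of all genes compared, 6.29% were at least 2-fold lower in WT VP than in WT DLP and 10.3% lower than in WT AP. The corresponding shares in MYC were 14.0% and 16.1%, so that 1 of 9 is close to the background in each of these 4 comparisons. Between DLP and AP, 0 of the 9 genes differed 2-fold in either mouse, against 5.16% of all genes in WT and 8.03% in MYC.

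Idh2 encodes the mitochondrial NADP-dependent isocitrate dehydrogenase (chr7:80094845-80118608). Its level was 31.2, 25.95 and 17.3 FPKM in WT VP, DLP and AP, and 49.0, 46.9 and 27.1 FPKM in MYC VP, DLP and AP. Every MYC library lay above the WT library of its lobe, and both VP and DLP of the MYC mouse lay above all WT libraries. The FPKM ratio of MYC to WT was 1.57 in VP (1.46 to 1.68), 1.81 in DLP (1.67 to 1.96) and 1.56 in AP (1.39 to 1.75). It was the only one of the 9 genes that passed 1.5-fold on the log2(FPKM + 1) scale in all 3 lobes as deposited, but it did so under none of the other library scalings. With medians of ratios and with equal sums without the 20 highest genes it passed in DLP alone. With equal sums it passed in DLP and AP, and with a trimmed mean in VP and DLP. Of all genes compared, 15.19% in VP, 8.438% in DLP and 6.609% in AP had a higher log2 ratio. In both mice Idh2 was lowest in AP, at 1.80-fold (1.61 to 2.02) below VP in WT and 1.81-fold (1.68 to 1.95) below VP in MYC.

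The 2 NADP-dependent isoenzymes thus went in opposite directions in VP only, where Idh1 was lower and Idh2 higher in MYC. In DLP and AP both were higher in MYC, Idh2 by more. The ratio of Idh1 to Idh2 was 0.186 in WT VP and 0.0659 in MYC VP, 0.597 in WT DLP and 0.398 in MYC DLP, and 0.798 in WT AP and 0.584 in MYC AP. The ratio was lower in MYC in every lobe, by 2.83-fold in VP, 1.501-fold in DLP and 1.37-fold in AP. Across lobes it increased from VP through DLP to AP in both mice.

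**Figure D2:**
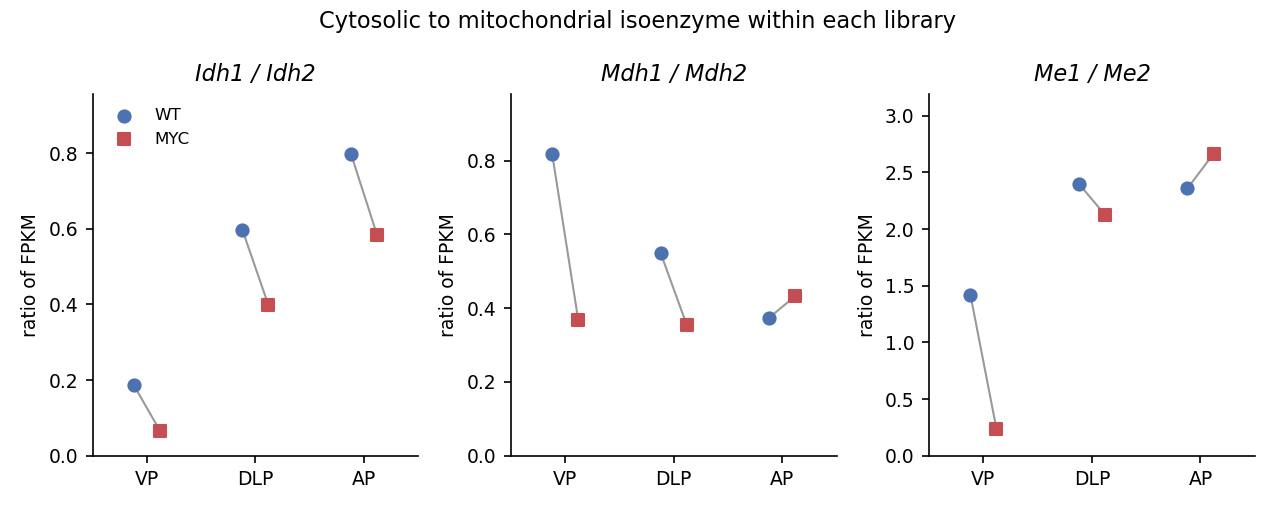
Ratio of the FPKM of a cytosolic enzyme to that of its mitochondrial counterpart (y axes, linear, from 0) in the VP, DLP and AP libraries (x axis) of the WT mouse (blue circles) and the MYC mouse (red squares), 1 library per point. The Idh1 to Idh2 ratio is lower in MYC in all 3 lobes, Mdh1 to Mdh2 is lower in MYC VP and DLP only, and Me1 to Me2 is lowest in MYC VP at 0.237. A further pair, Got1 to Got2, is not drawn and was higher in MYC VP and DLP.

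Idh3a encodes the catalytic alpha subunit of the NAD-dependent isocitrate dehydrogenase, the form that runs the TCA cycle (chr9:54586511-54604662). Its level was 8.73, 10.25 and 10.1 FPKM in WT VP, DLP and AP, and 16.6, 15.7 and 12.53 FPKM in MYC VP, DLP and AP. VP was the lowest WT library and the highest MYC library, but both differences from DLP were small. In MYC the ratio of VP to DLP had an interval that includes 1 (0.974 to 1.149), and in WT the log2 ratio of VP to DLP, -0.21, was 0.013 with a trimmed mean. MYC exceeded WT by an FPKM ratio of 1.90 in VP (1.74 to 2.08), 1.53 in DLP (1.40 to 1.67) and 1.24 in AP (1.12 to 1.39). Its partner subunits Idh3b and Idh3g were also higher in MYC in the 3 lobes, with log2 ratios between 0.29 and 0.78 in VP, 0.17 and 0.34 in DLP, and 0.02 and 0.10 in AP. Relative to Cs, Idh3a went from 0.246 in WT to 0.322 in MYC in VP and from 0.272 to 0.331 in DLP, and from 0.347 to 0.334 in AP.

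Ogdh encodes the E1 component of the 2-oxoglutarate dehydrogenase complex, which makes succinyl-CoA (chr11:6291597-6359094). Its level was 21.8, 24.7 and 20.7 FPKM in WT VP, DLP and AP, and 18.15, 21.3 and 20.5 FPKM in MYC VP, DLP and AP. It was the only one of the 9 genes that was not higher in MYC in any lobe, and it had the narrowest range, 1.36-fold from the lowest to the highest library. The ratio of MYC to WT in FPKM was 0.831 in VP (0.785 to 0.879), 0.864 in DLP (0.817 to 0.914) and 0.992 in AP (0.931 to 1.06), where the interval includes 1. Expressed relative to Krt8 and Krt18, which were themselves lower in MYC VP, the log2 ratio was 0.0085 in VP instead of -0.25, and 0.16 in AP instead of -0.01. The other subunits of the complex, Dlst and Dld, had log2 ratios between 0.03 and 0.27 in VP, between -0.26 and 0.07 in DLP, and between -0.18 and 0.17 in AP.

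Fh1 encodes fumarase, which hydrates fumarate to malate (chr1:175601378-175625635). Its level was 14.3, 21.7 and 11.0 FPKM in WT VP, DLP and AP, and 27.2, 23.5 and 16.85 FPKM in MYC VP, DLP and AP. The WT mouse had its highest value in DLP and the MYC mouse in VP. The FPKM ratio of MYC to WT was 1.90 in VP (1.72 to 2.09) and 1.53 in AP (1.33 to 1.76), but 1.08 in DLP (0.984 to 1.19), where the interval includes 1. The DLP log2 ratio of 0.11 became negative with equal sums without the 20 highest genes. Fh1 had the highest log2 ratio of the 9 genes in VP, 0.88, which 8.721% of all genes exceeded.

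Mdh2 encodes the mitochondrial malate dehydrogenase, which regenerates oxaloacetate for citrate synthase (chr5:135778649-135790386). Its level was 85.8, 125.5 and 109.3 FPKM in WT VP, DLP and AP, and 130.5, 140.4 and 103.0 FPKM in MYC VP, DLP and AP. It was the highest of the 9 genes in every library. MYC lay above WT in VP, with an FPKM ratio of 1.52 (1.45 to 1.59), and less so in DLP, at 1.12 (1.07 to 1.17), and below WT in AP, at 0.943 (0.894 to 0.995). The DLP log2 ratio of 0.16 was -0.0047 with equal sums without the 20 highest genes, and the AP log2 ratio of -0.08 was 0.08 relative to Krt8 and Krt18.

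The cytosolic isoenzyme Mdh1 went the other way in VP and DLP. It had 70.2, 68.9 and 40.9 FPKM in WT VP, DLP and AP, and 48.1, 49.8 and 44.6 FPKM in MYC VP, DLP and AP, with log2 ratios of -0.54, -0.46 and 0.12. The ratio of Mdh1 to Mdh2 was 0.818 in WT VP and 0.369 in MYC VP, 0.549 in WT DLP and 0.355 in MYC DLP, and 0.374 in WT AP and 0.433 in MYC AP. It was therefore 2.22-fold lower in MYC VP and 1.55-fold lower in MYC DLP, and higher in MYC AP.

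**Figure D3:**
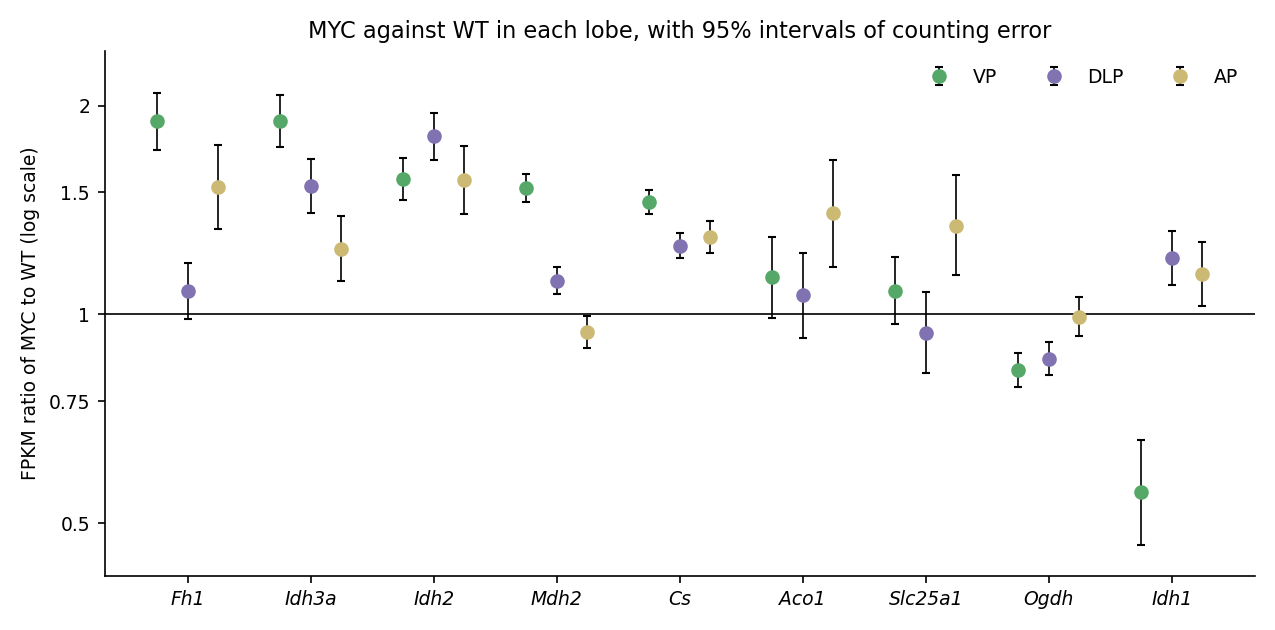
FPKM ratio of MYC to WT (y axis, log scale) for each of the 9 genes (x axis) in VP (green), DLP (purple) and AP (yellow), with bars for the 95% binomial interval of the estimated reads, which covers counting error only. Fh1 and Idh3a stand highest in VP at 1.90, Idh2 lies above 1.5 in all 3 lobes, and Idh1 in VP is the lowest point at 0.554.

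As a description of the pattern over the 6 libraries, each gene was set beside the 2 genes whose log2(FPKM + 1) values had the highest Pearson's r with it, among the 5360 genes that averaged 10 FPKM or more. The 6 points are 3 lobes of 2 mice, so they share animals, and with so few points many genes reach a high r, as the counts show. For Cs, 130 genes had an r of at least 0.95, led by Erh (0.9985) and Igf2r (0.9975). For Idh1 these numbers were 104 genes, led by Tmsb4x (0.9984) and Sult5a1 (0.9963), and for Idh2 83 genes, led by Tomm7 (0.9955) and Vps52 (0.9954). Atpif1 and Klhdc3 were nearest to Idh3a, Cat and Micu2 to Slc25a1, Prps2 and Zfp740 to Aco1, Fst and Prkag1 to Ogdh, Rtf2 and Ctsd to Fh1, and Cct3 and Ap2a1 to Mdh2, each with an r between 0.9828 and 0.998. Among the 9 genes themselves, r was highest between Idh2 and Cs (0.962) and between Fh1 and Cs (0.941), and lowest between Slc25a1 and Idh1 (-0.750).

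Other enzymes and subunits of the cycle were described as a list of 11 genes, all of which were compared. The counts for this and the lists that follow are for values as deposited. In VP 7 of 11 were above 0 and in DLP 5 of 11, against 53.25% and 53.54% of all genes. The medians were 0.07 and -0.03, beside 0.04 and 0.03 for all genes. In AP 10 of 11 were above 0, against 66.39% of all genes, with a median of 0.37. None of the 11 reached 2-fold in any lobe, where 12.8%, 9.85% and 2.65% of all genes did in VP, DLP and AP. A count of 0 of 11 is below or near these shares. The 4 subunits of succinate dehydrogenase, which passes electrons to the respiratory chain, had log2 ratios between -0.21 and 0.12 in VP, between -0.07 and 0.08 in DLP, and between 0.23 and 0.49 in AP. Suclg1, a subunit of succinyl-CoA ligase, had 42.04, 34.1 and 12.7 FPKM in WT VP, DLP and AP, and 32.6, 28.2 and 21.9 FPKM in MYC VP, DLP and AP. The direction of Suclg1 thus differed between AP and the other lobes, and WT AP was the lowest library.

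Of 14 genes of pyruvate entry and pyruvate dehydrogenase, 11 were above 0 in VP, 7 in DLP and 12 in AP, against 53.25%, 53.54% and 66.39% of all genes. The medians were 0.26, 0.05 and 0.27. Pdp1, a phosphatase that reactivates pyruvate dehydrogenase, had 13.55, 5.98 and 4.92 FPKM in WT VP, DLP and AP, and 3.50, 4.397 and 4.10 FPKM in MYC VP, DLP and AP. WT VP stood alone at the top, and the VP log2 ratio was -1.69. Pdk1, a kinase that inhibits the same complex, had a mean below 5 FPKM and is named after its values were seen. It went from 2.42 FPKM in WT VP to 6.95 FPKM in MYC VP (log2 ratio 1.22).

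Of 13 genes of the aspartate and malate shuttle and of anaplerosis, 11 were compared, since Slc1a1 and Me3 had means below 1 FPKM. In VP 8 of 11 were above 0, against 53.25% of all genes, and 3 were at least 2-fold higher, where 12.8% of all genes passed 2-fold in either direction. The 11 genes had medians of 0.37 in VP, 0.05 in DLP and 0.34 in AP. Over all 13 genes, with no filter, the median in VP was 0.14. Got1, the cytosolic aspartate aminotransferase, had 8.42, 7.70 and 10.7 FPKM in WT VP, DLP and AP, and 17.9, 14.1 and 13.8 FPKM in MYC VP, DLP and AP. Slc25a22, a mitochondrial glutamate carrier, went from 7.78 to 17.55 FPKM in VP, with log2 ratios of 1.08 in VP, 0.71 in DLP and 0.36 in AP. For both genes the MYC library was the higher in every lobe and the difference was largest in VP.

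Me2, the mitochondrial malic enzyme, had 3.60, 4.42 and 3.88 FPKM in WT VP, DLP and AP, and 11.3, 7.37 and 5.71 FPKM in MYC VP, DLP and AP. Its cytosolic counterpart Me1 had 5.11, 10.6 and 9.15 FPKM in WT, and 2.68, 15.7 and 15.2 FPKM in MYC, in the same lobe order. Me1 was thus lowest in MYC VP and highest in the other 2 MYC libraries, the same order of genotypes by lobe as for Idh1. The ratio of Me1 to Me2, a pair added after its values were seen, was 1.42 in WT VP and 0.237 in MYC VP, 2.399 and 2.13 in DLP, and 2.36 and 2.66 in AP.

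Of 8 genes of citrate transport and cytosolic citrate use, 5 were compared, and the plasma membrane citrate carriers Slc13a2, Slc13a3 and Slc13a5 had means below 1 FPKM. The medians of the 5 genes were 0.66 in VP, 0.48 in DLP and 0.34 in AP. Over all 8 genes, with no filter, they were 0.17, 0.30 and 0.31. Ank, a membrane protein known for exporting pyrophosphate and also linked to citrate release, had 31.7, 14.5 and 5.27 FPKM in WT VP, DLP and AP, and 57.4, 88.4 and 9.97 FPKM in MYC VP, DLP and AP. It was higher in MYC in each lobe, with its largest log2 ratio, 2.53, in DLP, where the FPKM ratio interval was 5.74 to 6.49. Acly, which cleaves cytosolic citrate to acetyl-CoA, had log2 ratios of 0.25 in VP, 0.18 in DLP and 0.67 in AP. Fasn, the fatty acid synthase that uses this acetyl-CoA, had 8.65, 8.74 and 8.97 FPKM in WT VP, DLP and AP, and 22.9, 13.1 and 11.5 FPKM in MYC VP, DLP and AP. The 3 WT lobes were alike in Fasn, and all 3 MYC libraries lay above them, VP most of all.

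A list of 12 genes of mitochondrial content, chosen outside the TCA cycle, had medians of 0.50 in VP, 0.30 in DLP and 0.23 in AP, beside 0.53, 0.16 and 0.36 for the 9 genes. Of the 12, 11 were above 0 in VP, 11 in DLP and 10 in AP, beside the same shares of all genes as above. Phb2, a prohibitin of the inner membrane, went from 48.4 to 141.8 FPKM in VP, and Tomm20, an import receptor of the outer membrane, from 14.2 to 29.7 FPKM, the 2 genes of the 12 that passed 2-fold there, against 12.8% of all genes. In VP the median of this list and that of the 9 genes differed by 0.03, and both lay above the median of all genes.

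**Figure D4:**
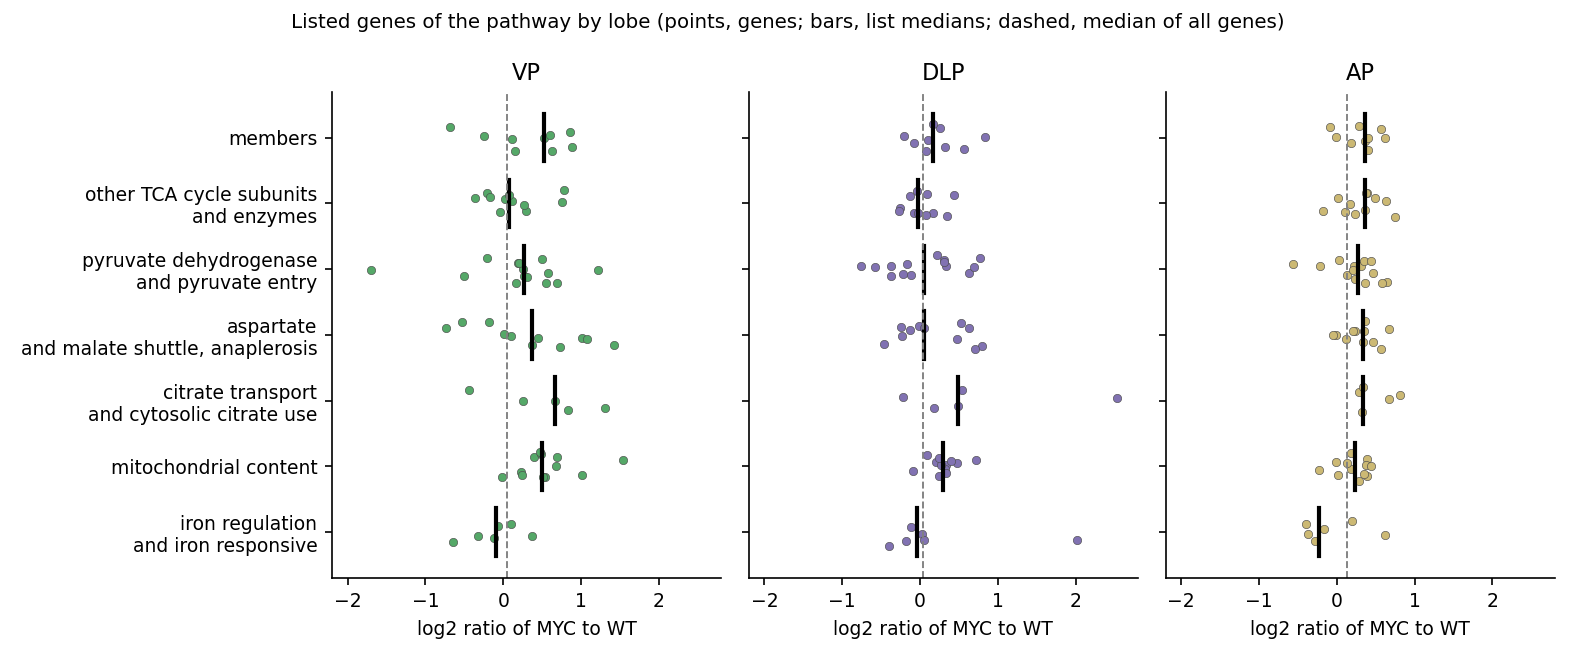
Log2 ratio of MYC to WT on the log2(FPKM + 1) scale (x axis) for the genes of each list (rows), in VP, DLP and AP (panels), where points are genes, short vertical bars are list medians and the dashed line is the median of all 12361 genes compared. The 9 genes stand in the top row, with medians of 0.53, 0.16 and 0.36, and Pdp1 in VP (-1.69) and Ank in DLP (2.53) are the points farthest out.

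Promoter windows from 250 bases before to 50 bases after the transcript start were taken from RefSeq (GRCm38.p6), and 8 of the 9 genes matched, all except Idh3a. They were searched for CACGTG, the E-box sequence to which MYC with its partner MAX is known to bind, which reads the same on both strands. It was present in the window of Slc25a1 and in 3 of 6 windows of Ogdh, and not in those of Cs, Aco1, Idh1, Idh2, Fh1 and Mdh2. Of all 32851 windows of this length, 7.15% hold it. The variant CACGCG, on either strand, which differs from the first motif by a single base, was in 1 of 2 windows of Idh1 and in that of Slc25a1, against 9.269% of all windows.

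The 250 bases before the start are shown for Slc25a1, whose only window holds the motif, and for Fh1, which had the highest log2 ratio of the 9 genes in VP and whose window does not. Both are given 5′ to 3′ on the strand of the gene, in lower case, with the E-box match in capitals. They lie at chr16:17928220-17928469 (minus strand) and chr1:175625636-175625885 (minus strand) in GRCm38.p6:
Slc25a1: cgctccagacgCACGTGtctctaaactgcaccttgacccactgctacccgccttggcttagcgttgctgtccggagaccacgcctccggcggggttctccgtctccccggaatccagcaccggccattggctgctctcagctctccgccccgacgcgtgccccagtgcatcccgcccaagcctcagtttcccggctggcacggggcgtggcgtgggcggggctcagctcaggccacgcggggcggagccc
Fh1: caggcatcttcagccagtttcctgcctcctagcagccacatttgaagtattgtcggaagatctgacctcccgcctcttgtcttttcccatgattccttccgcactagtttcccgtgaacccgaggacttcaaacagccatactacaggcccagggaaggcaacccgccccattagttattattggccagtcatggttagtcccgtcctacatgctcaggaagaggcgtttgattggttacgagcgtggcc
The match in Slc25a1 begins 239 bases before the start, and the G and C content of the stretch is 70.0%, against 52.8% in Fh1. In VP the FPKM ratio of MYC to WT was 1.08 for Slc25a1 and 1.90 for Fh1. Since Fh1 was chosen for its value in VP, these ratios do not compare genes with and without the match. A match describes the letters only and is not evidence of binding, and its absence says only that these letters are not in this window.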

How the data were processed

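Bulk RNA-seq of 6 libraries (VP, DLP and AP of 1 WT and 1 MYC mouse) was used, with groups taken from the sample titles. Per the labels, the authors used bcl2fastq 2.18, STAR and Cufflinks with the mouse build mm10, and they deposited 1 table of FPKM per gene. The gene annotation is not given in the sources used here. The methods call these values read counts, but they hold decimals, with library sums from 374100 to 483100, so that no count test was run.

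Log2 ratios used a pseudocount of 1, which makes the ratio of low genes smaller than that of their FPKM, and values as deposited. The depth of each library was estimated from the steps of low FPKM, over single-exon genes below 0.3 FPKM. Between 48.6% and 53.98% of these values were within 3% of whole reads at the depth chosen, against a median of 13.45% to 17.01% over other depths. Reads per gene followed from depth, FPKM and GENCODE transcript length less 200 bases. With 1 library per group, a gene was called by a 2-fold threshold, or 1.5-fold as an alternative.

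The genes and lists were chosen with earlier results of these data known. All 9 genes were named. From each list, genes averaging 5 FPKM or more with a 2-fold difference in any lobe were named, together with Mdh1, Acly, Fasn, Krt8, Krt18 and Myc. A further gene that was to be named whatever its values is not reported here. Suclg1, Me1, Got2 and Pdk4 were named after their values were seen. Alternatives were medians of ratios, equal sums with and without the 20 highest genes, a trimmed mean, a pseudocount of 0.1, no filter, a minimum mean of 10 FPKM, and ratios to Krt8 and Krt18 or to the mitochondrial list. A RefSeq table of GRCm38.p6, in which 24344 symbols were found, gave the gene positions. Scripts ran in Python 3.11.15 with pandas 2.3.3, numpy 2.4.6 and scipy 1.17.1, and matplotlib 3.10.9 drew the plots.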

Additional observations from a re-analysis of the deposited data

Results flagged for a closer look

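The log2 ratio of MYC to WT had opposite directions in different lobes for several genes. With 1 library for each lobe and genotype, the differences given here were not tested. For Idh1 the log2 ratio in VP minus that in DLP was -0.94 and minus that in AP was -0.87, from values of -0.69 in VP, 0.25 in DLP and 0.18 in AP. For Mdh2 the ratio in VP minus that in AP was 0.68, from 0.60 and -0.08. Me1, the cytosolic malic enzyme, differed by -1.25 between VP and DLP and by -1.41 between VP and AP. Suclg1, of succinyl-CoA ligase, differed by -1.10 between VP and AP and by -1.01 between DLP and AP, from -0.36, -0.27 and 0.75 in VP, DLP and AP. Pdk4, a kinase that inhibits pyruvate dehydrogenase, went from 40.35 FPKM in WT to 63.0 FPKM in MYC in DLP, and from 89.5 to 60.1 FPKM in AP, a difference in log2 ratio between DLP and AP of 1.198.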

How the results depend on the processing

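With 1 library per lobe and genotype, no library could be left out, and no spread between animals can be set against any value. No paired analysis was possible between genotypes because each is 1 mouse. The lobes are paired within a mouse, but a fit of lobe with mouse as a block was not run, and lobe differences are given for each mouse on its own. None of the 9 genes reached 2-fold between genotypes under any library scaling, pseudocount or filter tried, but in VP Fh1 (1.14) and Idh3a (1.12) did relative to Krt8 and Krt18, and Idh1 (-1.19) relative to the mitochondrial content list. At 1.5-fold, the number of the 9 genes that differed in either direction was 5 in VP, 1 in DLP and 1 in AP. Of all genes compared, 16.7% were higher and 14.9% lower in VP, 13.4% and 9.44% in DLP, and 7.53% and 3.13% in AP. Between DLP and AP the number of the 9 genes was 1 in WT and 1 in MYC, and no share of all genes was taken there at 1.5-fold. The median log2 ratio of the 9 genes in VP was 0.42 with medians of ratios, 0.30 with equal sums and 0.26 with equal sums without the 20 highest genes. That last setting gave -0.0047 in DLP. In AP the median was 0.21 with medians of ratios and 0.21 with a trimmed mean. These scalings moved all genes too: the median of all genes in VP went from 0.04 to -0.15 with equal sums and to -0.18 without the 20 highest genes. Idh2 in AP passed 1.5-fold as deposited and with equal sums, and not with medians of ratios, a trimmed mean or equal sums without the 20 highest genes. With a pseudocount of 0.1, Idh3a in DLP and Fh1 in AP passed it as well. Relative to the mitochondrial content list, Aco1 (-0.35) and Slc25a1 (-0.39) turned negative in VP, Idh1 (-0.05) in AP, and Aco1 (-0.22), Idh1 (-0.04), Fh1 (-0.19) and Mdh2 (-0.14) in DLP, where 3 of 9 genes stayed above 0. The shallowest library, WT AP, limits the precision of the AP ratios of Aco1 and Slc25a1 most, with 175 and 200 estimated reads.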
